A study of Mus musculus with 16 samples.

Results

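Pyruvate dehydrogenase and the tricarboxylic acid cycle were followed through 30 mouse genes in the heart apex. They encode the mitochondrial pyruvate carrier (2 genes), the pyruvate dehydrogenase complex (5), the kinases that switch the complex off (4), the phosphatase subunits that switch it on (3), pyruvate carboxylase (1), enzymes of the cycle (12) and the cytosolic and aspartate-handling enzymes of the malate-aspartate shuttle (3). Members were found by name, through the RefSeq accession that each array probe carries. All 30 were on the array, with 46 probes. Of these, 29 genes with 44 probes passed the filter on dim probes, among 13725 genes tested in all. The gene left out of the tests was Pdk3, a dehydrogenase kinase, whose only probe was well above background on 3 of 4 DKO, 3 of 4 AKT1 KO, 3 of 4 AKT2 KO and 2 of 4 control arrays. Aconitase and succinate dehydrogenase are not among the 30 and are described as neighbours of the cycle further on.

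The study deleted the protein kinases AKT1 and AKT2 in cardiomyocytes, singly and together, and measured RNA of the heart apex on 16 one-colour Agilent arrays, 1 heart per array. Every mouse was a 3-month-old male on the C57Bl/6 background and carried 1 copy of MHC-mercremer, a tamoxifen-activated Cre recombinase driven by the cardiomyocyte-restricted alpha myosin heavy chain promoter. The 4 hearts of the double knockout group (DKO) were homozygous for floxed AKT1 and floxed AKT2, the 4 AKT1 KO hearts for floxed AKT1, and the 4 AKT2 KO hearts for floxed AKT2. The 4 control hearts carried MHC-mercremer and no floxed allele. All groups, controls included, received 5 daily injections of 4-hydroxytamoxifen at 500 µg per day, and the tissue was collected 21 days after that induction. The labels call the mice untreated, in the sense that nothing further was done to them. With that promoter Cre is made in cardiomyocytes, and the other cells of the apex, which contribute RNA to every array, should keep their AKT genes. Nothing in the labels says whether littermates were used, and p-values measure the spread between these 16 hearts.

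AKT1 and AKT2 carry the insulin signal in muscle cells, where they promote glucose uptake. Pyruvate made from glucose or lactate enters the mitochondrion through a carrier of MPC1 and MPC2 and is turned into acetyl-CoA by the dehydrogenase complex, which is inactive while phosphorylated by PDK kinases and active again once PDP phosphatases have removed the phosphate. The heart, which burns mostly fatty acids, feeds acetyl-CoA from both fuels into the cycle, whose NADH drives respiration. PDK4, the fasting-induced kinase, holds pyruvate back when fatty acids are plentiful.

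Levels are given on a log2 scale, as the log2 signal of a probe minus the log2 of its array's 75th percentile, so that 1 unit is a doubling and 0 is the signal that the dimmer 75% of spots do not exceed. They compare arrays for 1 probe and not 1 gene with another. A gene is called changed at a Benjamini-Hochberg adjusted p under 0.05 in a limma fit over all 13725 genes. The Akt2 level checked the labels and averaged 2.91 ± 0.102 in DKO and 2.54 ± 0.0924 in AKT2 KO, against 4.91 ± 0.0619 in control hearts (SD, n = 4 each). Akt1 was called lower neither in DKO hearts (log2 difference -0.02, SE 0.105) nor in AKT1 KO hearts (0.10, SE 0.105). Where its probe lies relative to the deleted exons was not established, so this probe does not check the AKT1 deletion in either group. DKO replicate 3 lay apart from the other DKO arrays along the first principal component of all genes (78.6, against 42.5 to 47.8 for the other 3), and AKT1 KO replicate 1 had the lowest value of its group for 28 of the 29 members. The counts given below were therefore also made without both arrays. The 16 arrays sat on 2 slides, 2 arrays of each group per slide, with each group in an array column of its own, so position within the slide and group cannot be told apart.

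In DKO hearts nearly the whole pathway was lower than in control hearts. Of the 29 members tested, 24 were called lower and 0 higher, where 21.2% of all genes tested were called lower and 24.4% higher. All 4 DKO arrays lay below all 4 control arrays for 23 members, against 20.6% of all genes. The median log2 difference of the members was -0.66, and that of all genes was 0.02. The falls ran from 1.21-fold to 2.86-fold with a median of 1.63-fold, 19 of the 24 were at least 1.5-fold, and 3 were at least 2-fold. The 3 were Sucla2, Pdhx and Mpc2. Without DKO replicate 3 and AKT1 KO replicate 1 the count was 25 lower, the added gene being Pdk4, and it was 22 within slide 1 and 15 within slide 2, where each group has 2 arrays. In bulk tissue, fewer cardiomyocytes and less of an RNA per cardiomyocyte cannot be told apart.

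**Figure D1:**
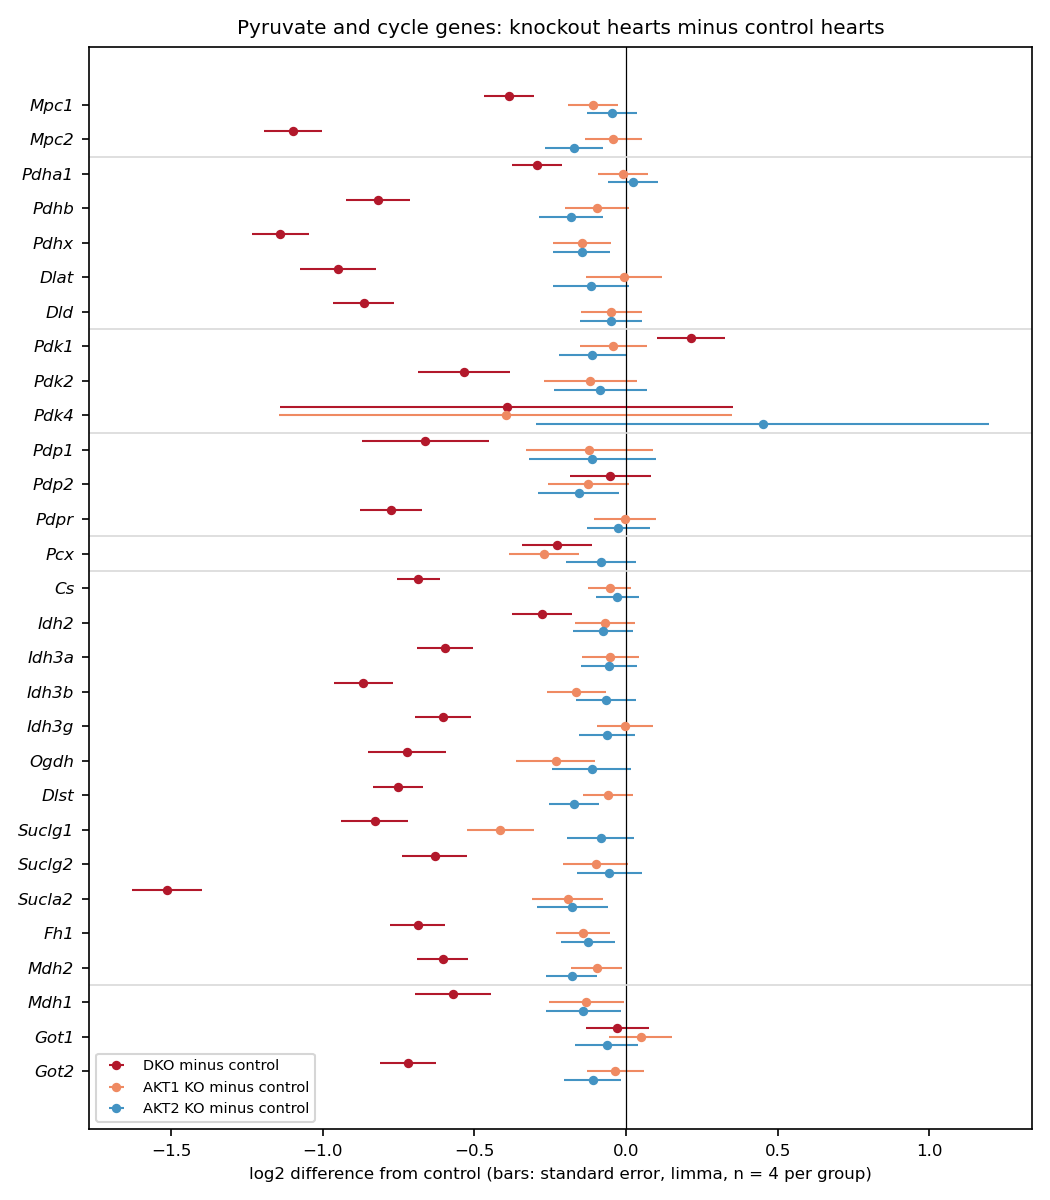
Log2 difference from control (horizontal axis) of each of the 29 members tested (rows, ordered by role with grey lines between roles), for DKO, AKT1 KO and AKT2 KO hearts; points are limma estimates and bars their standard errors, n = 4 hearts per group. DKO points lie left of 0 for every gene except Pdk1 and reach -1.51 for Sucla2, while those of the single knockouts lie near 0 for most genes.

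Both subunit genes of the pyruvate carrier fell in DKO hearts. Mpc2 had log2 levels of 5.56, 5.41, 5.18 and 5.42 in DKO hearts, against 6.58, 6.51, 6.36 and 6.50 in control hearts. No array of one group came within the range of the other, and Mpc2 fell by 1.10 on the log2 scale (SE 0.0944, adjusted p = 6.42e-07). Mpc1, its obligate partner, averaged 6.64 ± 0.106 in DKO and 7.03 ± 0.0399 in control hearts (SD, n = 4 each), a log2 difference of -0.39 (adjusted p = 0.00154).

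All 5 genes of the dehydrogenase complex fell. Pdhx encodes the protein that tethers the third enzyme to the core. It read 2.14, 1.97, 1.77 and 2.00 in DKO hearts, against 3.17, 3.11, 3.08 and 3.08 in control hearts. No DKO array came near the controls, and the log2 difference was -1.14 (SE 0.0945, adjusted p = 5.12e-07).
Dlat, the acetyl-transferring core that carries lipoate, read 3.51, 3.31, 2.89 and 3.29 in DKO and 4.26, 4.23, 4.05 and 4.25 in control hearts (log2 difference -0.95, adjusted p = 3.35e-05). Dld, the lipoamide dehydrogenase shared with the 2-oxoglutarate complex, read 3.78, 3.62, 3.42 and 3.52 in DKO and 4.38, 4.54, 4.44 and 4.45 in control hearts (log2 difference -0.86, adjusted p = 1.1e-05). Of the genes for the pyruvate-decarboxylating first enzyme, the beta subunit gene Pdhb read 6.41, 6.26, 6.07 and 6.48 in DKO and 7.20, 7.11, 7.02 and 7.15 in control hearts (log2 difference -0.82, adjusted p = 2.7e-05). The alpha subunit gene Pdha1, whose protein is the one the kinases phosphorylate, fell least of the 5, by 0.29 on the log2 scale (adjusted p = 0.00901), with every DKO array still below every control array.

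**Figure D2:**
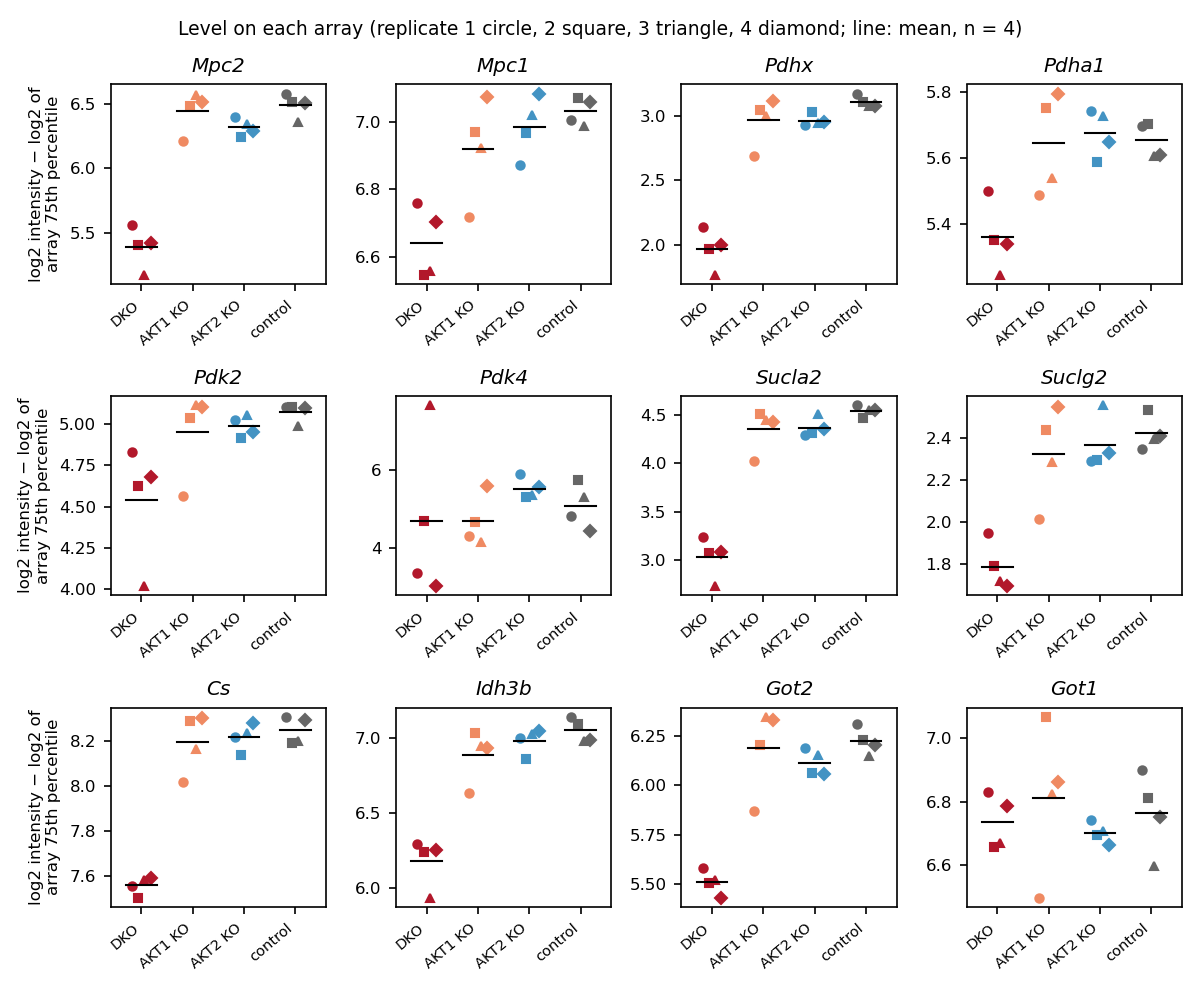
Log2 level (vertical axis, log2 signal minus log2 of the array's 75th percentile, scaled to each gene) of 12 members on each of the 16 arrays, DKO, AKT1 KO, AKT2 KO and control from left to right; symbols mark replicates 1 to 4 and lines the means, n = 4. DKO arrays lie below all others for Mpc2, Pdhx, Sucla2, Cs, Idh3b and Got2, spread from 3.01 to 7.69 for Pdk4, and overlap the controls for Got1.

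The kinases did not move together. Pdk2, the isoform present throughout the body, read 4.83, 4.62, 4.02 and 4.68 in DKO hearts, against 5.10, 5.10, 4.99 and 5.09 in control hearts, a log2 difference of -0.53 (SE 0.153, adjusted p = 0.0105). Its lowest array was DKO replicate 3. Pdk1, a kinase induced by HIF-1 in low oxygen, read 3.16, 3.04, 3.43 and 2.89 in DKO and 2.91, 3.00, 2.87 and 2.88 in control hearts with its brightest probe. Those groups overlap, and the log2 difference of 0.21 was not called (95% interval -0.02 to 0.45, adjusted p = 0.129). Against AKT2 KO hearts the same probe was called higher in DKO hearts (0.33, adjusted p = 0.0285), and the mean over its 4 probes was -0.032 in that comparison. Of the other Pdk1 probes, one differed by 0.07, one by -0.02, and one was called lower, reading -0.72, -0.69, -0.17 and -0.17 in DKO and 0.21, 0.05, 0.16 and 0.23 in control hearts (log2 difference -0.60, adjusted p = 0.00554 over all probes). The 4 probes carry 1 RefSeq accession, so which reading stands for the kinase cannot be said from the arrays.

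Pdk4, described here because of the spread of its values, had the largest SD of all members in each of the 4 groups. It read 3.35, 4.70, 7.69 and 3.01 in DKO hearts, against 4.82, 5.76, 5.31 and 4.44 in control hearts. DKO replicate 3 was the highest of all 16 arrays, and DKO replicates 1 and 4 were the lowest. The log2 difference was -0.39 (SE 0.747, adjusted p = 0.697), with a 95% interval of -1.99 to 1.20 that covers a large change either way. Without DKO replicate 3 it was -1.39 (SE 0.424) and was called (adjusted p = 0.014).
Among the DKO hearts, most other genes of fatty acid supply and PPAR response were also highest in replicate 3. Of 14 such genes tested, DKO replicate 3 was the highest DKO array for 12. Of these 12, Acadl, Fabp3, Hadha, Plin5 and Ucp3 were higher on arrays of other groups, so over all 16 arrays their peak lay elsewhere. Angptl4, a secreted lipase inhibitor induced by fasting, read 1.06, 3.70, 6.09 and -0.17 in DKO and 2.99, 3.25, 3.33 and 2.19 in control hearts. Plin2, a lipid droplet coat protein, read 2.35, 2.47, 4.72 and 2.28 in DKO and 2.70, 2.78, 2.72 and 2.69 in control hearts. These 2 were picked after their values were seen. Most other members did not follow this: DKO replicate 3 was the lowest DKO array for 18 of the 29. It was the highest DKO array for Pdk1 with its brightest probe (3.43) and for Pdpr (1.88), as for Pdk4.

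Among the phosphatase genes, Pdpr, which encodes the regulatory subunit, was uniformly lower, reading 1.82, 1.70, 1.88 and 1.56 in DKO and 2.60, 2.48, 2.37 and 2.61 in control hearts (log2 difference -0.78, SE 0.103, adjusted p = 3.38e-05). The catalytic subunit gene Pdp1 read 1.75, 1.43, 0.36 and 1.45 in DKO and 1.97, 1.92, 1.86 and 1.88 in control hearts (log2 difference -0.66, SE 0.208, adjusted p = 0.0178). DKO replicate 3 was far below the other DKO hearts. The second Pdp1 probe, on another transcript accession, differed by -0.32 and was not called (adjusted p = 0.112 over all probes).
Pdp2, the other catalytic subunit, was called on 1 of its 2 probes only. The brighter one read 4.57, 4.41, 4.22 and 4.61 in DKO and 4.63, 4.37, 4.50 and 4.51 in control hearts, a log2 difference of -0.05 (95% interval -0.34 to 0.23, adjusted p = 0.779). The dimmer one read 1.03, 0.84, -0.81 and 0.82 in DKO and 1.93, 2.01, 1.80 and 2.04 in control hearts, without overlap, a log2 difference of -1.48 (adjusted p = 0.00102 over all probes). Both probes carry the same accession. Averaging them gave -0.76 and a call.

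**Figure D3:**
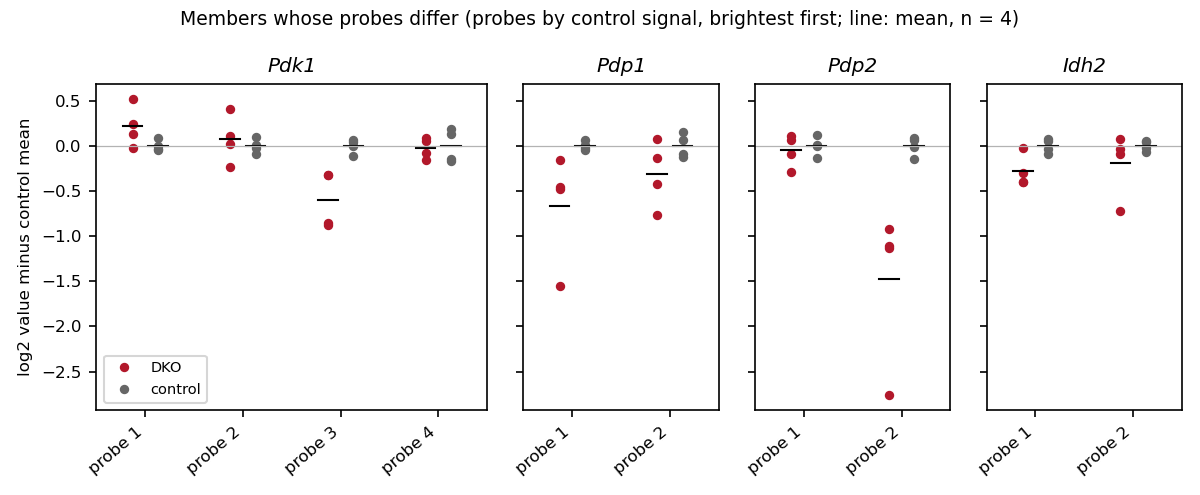
Log2 value minus the control mean (vertical axis) of every probe past the filter for Pdk1, Pdp1, Pdp2 and Idh2, numbered from the brightest in control hearts; points are arrays of the DKO (left) and control (right) groups and lines their means, n = 4. In this plot 1 of 4 Pdk1 probes, the brighter Pdp1 probe and the dimmer Pdp2 probe lie below control on every DKO array, and all other probes of the 4 genes overlap the controls.

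Probes gave the same call for most members. Of 12 members with more than 1 probe past the filter, 8 had the same call on all of them, and the 4 that did not are Pdk1, Pdp1, Pdp2 and Idh2. Over all 44 probes, 34 were called lower and 0 higher in DKO hearts, where 19.5% of all 26396 probes tested were called lower, and 22 members were lower on every probe.

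Pcx, pyruvate carboxylase, makes oxaloacetate from pyruvate and so refills the cycle. It read 2.73, 2.52, 2.24 and 2.54 in DKO and 2.72, 2.79, 2.68 and 2.75 in control hearts. The groups overlap through DKO replicate 1, and the log2 difference of -0.23 was not called (95% interval -0.47 to 0.02, adjusted p = 0.124).

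All 12 cycle enzymes among the members were called lower in DKO hearts, 11 of them without overlap of the arrays. Citrate synthase, Cs, joins acetyl-CoA to oxaloacetate. It read 7.56, 7.51, 7.58 and 7.59 in DKO hearts, against 8.31, 8.19, 8.20 and 8.29 in control hearts, and had the smallest DKO spread of all members (SD 0.0389). The log2 difference was -0.69 (SE 0.0711, adjusted p = 3.64e-06).
The 3 subunit genes of the NAD-dependent isocitrate dehydrogenase fell, Idh3b by 0.87 (adjusted p = 8.67e-06), Idh3g by 0.60 (adjusted p = 0.000115) and Idh3a by 0.60 (adjusted p = 0.000138) on the log2 scale. Idh3b read 6.30, 6.24, 5.94 and 6.25 in DKO and 7.14, 7.09, 6.98 and 6.99 in control hearts.
The NADP-dependent mitochondrial enzyme gene Idh2 was the weakest call of the 24. It read 8.25, 8.15, 8.15 and 8.53 in DKO and 8.61, 8.45, 8.51 and 8.62 in control hearts, overlapping through DKO replicate 4 (log2 difference -0.28, adjusted p = 0.0333). With quantile normalization it was -0.05 and not called, and leaving out any of 6 arrays ended the call: control replicates 1, 3 and 4 and DKO replicates 1, 2 and 3.

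In the 2-oxoglutarate dehydrogenase complex, the lipoate-bearing core gene Dlst read 6.09, 5.99, 5.89 and 6.00 in DKO and 6.82, 6.74, 6.65 and 6.78 in control hearts (log2 difference -0.75, SE 0.0824, adjusted p = 6.02e-06). Ogdh, the first enzyme of that complex, fell by 0.72 (adjusted p = 0.000415).
The 3 genes of succinyl-CoA ligase fell. The enzyme pairs the alpha subunit Suclg1 with a beta subunit that sets the nucleotide, Sucla2 for ADP and Suclg2 for GDP. Sucla2 read 3.24, 3.07, 2.73 and 3.08 in DKO hearts, against 4.60, 4.47, 4.55 and 4.55 in control hearts. The highest DKO array lay far below the lowest control array. The Sucla2 log2 difference of -1.51 (SE 0.117, adjusted p = 2.58e-07) was the largest of all members. Suclg1 read 5.20, 5.11, 4.91 and 5.06 in DKO and 5.91, 5.97, 5.82 and 5.90 in control hearts (-0.83, adjusted p = 3.48e-05). Suclg2 fell by 0.63 (adjusted p = 0.000267), and its 3 probes gave falls between 0.60 and 0.63.
The last steps fell as well. Fumarase, Fh1, read 5.74, 5.56, 5.45 and 5.73 in DKO and 6.35, 6.31, 6.26 and 6.32 in control hearts (-0.69, adjusted p = 2.88e-05). Mitochondrial malate dehydrogenase, Mdh2, read 8.32, 8.22, 8.27 and 8.35 in DKO and 8.97, 8.81, 8.84 and 8.96 in control hearts (-0.60, adjusted p = 4.93e-05).

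In the malate-aspartate shuttle, which carries cytosolic NADH equivalents into the mitochondrion, the mitochondrial aspartate aminotransferase gene fell and the cytosolic one did not differ detectably. Got2, the mitochondrial form, read 5.58, 5.50, 5.52 and 5.43 in DKO hearts, against 6.31, 6.23, 6.15 and 6.21 in control hearts (log2 difference -0.72, SE 0.0938, adjusted p = 2.93e-05). Got1, the cytosolic form, named here because it stands outside the general fall, read 6.83, 6.66, 6.67 and 6.79 in DKO and 6.90, 6.81, 6.59 and 6.75 in control hearts. The Got1 groups lie on top of each other, with a log2 difference of -0.03 and a 95% interval of -0.25 to 0.19. With background correction by normexp it was 0.01, and with quantile normalization -0.15, not called in either. Mdh1, cytosolic malate dehydrogenase, fell by 0.57 (adjusted p = 0.00176), although it too is cytosolic.

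Because partners are measured on the same array, their difference within an array is free of any factor that scales the whole array alike. It is not free of a normalization that depends on intensity, such as quantile normalization. In all, 8 such pairs were compared between DKO and control hearts. The pairs were set with the changes of the members known, so their values are a description and carry no test. For 6 pairs the DKO and control arrays did not overlap, and the share over all pairs of genes was not counted. The pair difference in DKO hearts relative to that in control hearts was -0.71 log2 for Mpc2 minus Mpc1 and -0.52 for Pdhb minus Pdha1. It was -0.88 for Sucla2 minus Suclg2, -0.69 for Got2 minus Got1 and -0.32 for Idh3a minus Idh2. It was 0.75 for Pdk1 minus Pdk2 with the brightest Pdk1 probe. For Mdh2 minus Mdh1 and for Dlst minus Ogdh it was -0.03, and the groups overlapped.

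**Figure D4:**
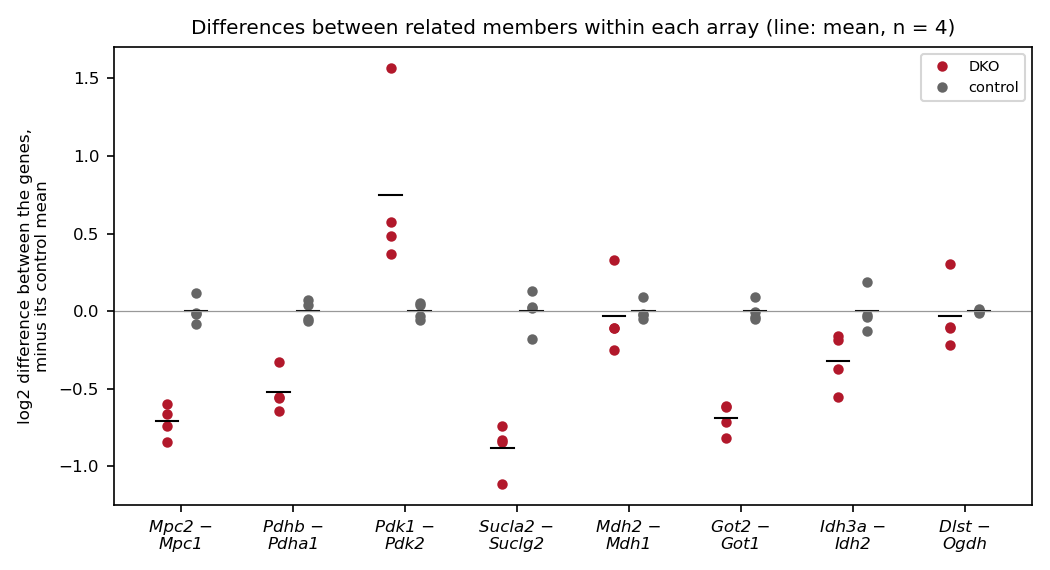
Difference in log2 level between 2 members on the same array, minus the mean of that difference in control hearts (vertical axis), for 8 pairs; points are arrays of DKO (left) and control (right) hearts and lines the group means, n = 4. DKO and control arrays separate for 6 pairs and overlap for Mdh2 minus Mdh1 and Dlst minus Ogdh.

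Factors that drive genes of oxidative metabolism in the heart include the estrogen-related receptors (ERR), NRF1 and the ETS factor GABPA, and these were measured on the same arrays. Of 16 regulators of the PPAR, ERR and PGC-1 network, 3 were called higher and 9 lower in DKO hearts, with a median log2 difference of -0.36. Over all genes tested, 24.4% were called higher and 21.2% lower. Tfam, the mitochondrial DNA packaging factor, fell by 0.56 (adjusted p = 9.46e-05) and Ppargc1b, a coactivator of ERR, by 0.92 (adjusted p = 0.000971). Nrf1 rose by 0.49 (adjusted p = 0.000245). The ERR genes had lower means in DKO than in control hearts: Esrra 4.79 against 5.40, Esrrb 2.31 against 2.90 and Esrrg 0.94 against 1.66. So did Gabpa, at -0.26 against 0.08 (n = 4 each). Myc rose by 3.24 (adjusted p = 9.71e-06) and was well above background on 4 DKO and 3 control arrays. These are levels of RNA and say nothing of the activity of the factors.

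The start regions of 28 members, 37 windows in all, were in RefSeq's table (build GRCm38.p6), each 300 bases long from 250 before to 50 after an annotated start. They were searched on both strands for the letters of motifs of these factors. The ERR core AAGGTCA was found in 2 windows, of Got1 and Ogdh, and in 4.72% of all 32851 windows. Its longer form TNAAGGTCA, which contains the core, was in 0 member windows and 1.28% of all. The NRF1 letters GCGCNTGCG were in 6 windows, of the 5 members Pdha1, Dld, Idh3g, Ogdh and Sucla2, and in 6.31% of all. The GABPA letters CCGGAAGT were in 1 window, of Dlst, and in 3.89% of all. The members were not tested against all windows. The windows given here are that of Sucla2, the member with the largest fall, that of Dlst, and that of Got1, whose level did not differ detectably although it holds the ERR core. Capitals mark the motif match on either strand, and each sequence runs 5′ to 3′ along the gene's strand.
Sucla2 (chr14:73552536-73552835, plus strand, NRF1 letters in capitals): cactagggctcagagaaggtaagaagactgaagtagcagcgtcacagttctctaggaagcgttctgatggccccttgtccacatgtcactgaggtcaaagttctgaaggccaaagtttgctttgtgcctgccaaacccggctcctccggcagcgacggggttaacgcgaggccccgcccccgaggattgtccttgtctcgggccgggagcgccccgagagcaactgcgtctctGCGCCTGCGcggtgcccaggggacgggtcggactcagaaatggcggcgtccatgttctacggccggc
Dlst (chr12:85110583-85110882, plus strand, GABPA letters in capitals): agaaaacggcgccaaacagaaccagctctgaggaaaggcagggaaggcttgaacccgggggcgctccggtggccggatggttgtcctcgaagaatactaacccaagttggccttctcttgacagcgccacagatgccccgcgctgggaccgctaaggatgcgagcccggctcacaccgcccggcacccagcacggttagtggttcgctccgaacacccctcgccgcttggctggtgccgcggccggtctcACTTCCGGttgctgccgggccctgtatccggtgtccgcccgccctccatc
Got1 (chr19:43524556-43524855, minus strand, ERR core in capitals): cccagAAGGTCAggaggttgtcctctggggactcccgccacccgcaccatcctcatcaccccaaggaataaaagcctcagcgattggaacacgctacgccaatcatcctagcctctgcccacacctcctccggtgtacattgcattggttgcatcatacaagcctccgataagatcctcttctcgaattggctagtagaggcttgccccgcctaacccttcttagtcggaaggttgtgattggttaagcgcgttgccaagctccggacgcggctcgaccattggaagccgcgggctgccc
The match starts at base 234 of the Sucla2 window, base 251 of the Dlst window, where the annotated transcript begins, and base 6 of the Got1 window. A match of letters is not a bound site, and a window without a match says nothing of the factor.

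Neither single knockout changed any member past the threshold. In AKT1 KO hearts 0 of 29 members were called, where 0.794% of all genes were, with 2 members at an unadjusted p under 0.05 (7.41% of all genes). The members' median log2 difference was -0.10 (all genes -0.03), and 28 of 29 lay below 0, against 59.7% of all genes. With quantile normalization that median was -0.02, so the small downward lean depended on the scaling. It was also uneven between arrays: in the main scaling the members' median by array was -0.32, -0.02, -0.09 and 0.03, lowest in replicate 1. All AKT1 KO arrays lay below all control arrays for 4 members, Pdp1, Pcx, Ogdh and Suclg1, against 6.29% of all genes.
The nearest to a call was Suclg1, the shared alpha subunit of succinyl-CoA ligase, which read 5.09, 5.68, 5.56 and 5.61 in AKT1 KO hearts, against 5.91, 5.97, 5.82 and 5.90 in control hearts. Replicate 1 was far below the other AKT1 KO hearts, and the other 3 were below every control. The log2 difference was -0.41 (SE 0.11, adjusted p = 0.144). With arrays weighted by quality it was -0.30 and called (adjusted p = 0.00737), and without AKT1 KO replicate 1 and DKO replicate 3 it was -0.28 and called (adjusted p = 0.0212). Pcx was the other member with an unadjusted p under 0.05, at -0.27 (adjusted p = 0.594).

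In AKT2 KO hearts 0 of 29 members were called, against 0.131% of all genes, and 0 had an unadjusted p under 0.05 (3.23% of all genes). The median was -0.09 (all genes -0.02), and 27 of 29 lay below 0, against 57.7% of all genes. All AKT2 KO arrays lay below all control arrays for 4 members, Pdhb, Pdhx, Pdk1 and Mdh2, against 5.11% of all genes. Sucla2, the member with the largest fall in DKO hearts, read 4.02, 4.51, 4.45 and 4.42 in AKT1 KO and 4.29, 4.31, 4.51 and 4.35 in AKT2 KO hearts, where control hearts ran from 4.47 to 4.60. Of these 8 single-knockout arrays 6 lay below every control array, AKT1 KO replicate 1 the farthest. The absence of a call does not show the absence of an effect, but the intervals bound its size. For 23 of the 24 members called in DKO hearts, the 95% interval of the AKT1 KO difference excluded a fall as large as the DKO one, and the same count held for AKT2 KO. The exception in both was Idh2.

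Set directly against the single knockouts, with the same DKO arrays as above, DKO hearts were again lower. Against AKT1 KO hearts 23 of 29 members were called lower and 0 higher, where 20.3% of all genes were called lower and 26.7% higher, and the members' median was -0.54. The groups did not overlap for 17 of them, against 14.8% of all genes. Against AKT2 KO hearts 23 were called lower, where 18.6% of all genes were, and 1, Pdk1, was called higher, where 23.5% were. The median was -0.58, and 21 members had all DKO arrays below all AKT2 KO arrays, against 17.3% of all genes. Within slide 2 alone 10 members were called lower against AKT1 KO and 12 against AKT2 KO hearts. Over all genes the lower calls there were 1103 and 925, against 2789 and 2552 with all arrays.
The fall in DKO hearts was larger than the sum of the falls in the single knockouts for 15 members, and smaller for 0, by the test of the departure from additivity in the same fit. Of all genes tested, 10.1% departed to the lower side and 15.9% to the higher side. The departure was largest for Sucla2 at -1.14 log2 (SE 0.165, adjusted p = 0.000253), Mpc2 at -0.88 (SE 0.133, adjusted p = 0.000352) and Pdhx at -0.85 (SE 0.134, adjusted p = 0.000482). It covered all members of the dehydrogenase complex except Pdha1 (-0.31, adjusted p = 0.0636). In the cycle it covered 8 of the 12, Cs, Idh3a, Idh3b, Idh3g, Dlst, Suclg2, Sucla2 and Fh1. Within slide 2 alone, 0 members were called for this departure, 188 of 13725 genes were, and the test had 2 arrays per group.

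Most genes around the pathway were lower in DKO hearts as well. Over all genes tested, 21.2% were called lower and 24.4% higher, the shares to set beside each list below, cell type markers included. Of 12 further cycle genes and succinate dehydrogenase subunits and assembly factors, 12 were called lower and 0 higher, with a median of -0.58. Succinate dehydrogenase also is complex II of the respiratory chain, and its subunit genes Sdha, Sdhb, Sdhc and Sdhd were all among the 12. Values are given for Sdhd (-0.63, adjusted p = 2.39e-05), Sdhb (-0.55, adjusted p = 0.000271) and the assembly factor Sdhaf3 (-0.70, adjusted p = 3.6e-05). Ogdhl, a close relative of Ogdh, fell by 2.56 (adjusted p = 4.64e-07) and was well above background on 3 of 4 DKO arrays.
Of 7 inner-membrane carriers, 6 fell and 1 rose. The oxoglutarate-malate carrier Slc25a11 of the shuttle fell by 0.75 (adjusted p = 0.000109), the phosphate carrier Slc25a3 by 0.64 (adjusted p = 0.00018) and the aspartate-glutamate carrier Slc25a12 by 0.47 (adjusted p = 0.0021). The dicarboxylate carrier Slc25a10 fell by 0.85 (adjusted p = 0.000756) and was well above background on 3 of 4 DKO arrays. The 1 that rose was the citrate exporter Slc25a1 (0.39, adjusted p = 0.0141), named after its value was seen.
Genes of side reactions were split. Of 11 tested, 4 fell and 2 rose, with a median of -0.19. Ldhb, the heart form of lactate dehydrogenase, fell by 0.86 (adjusted p = 1.88e-05) and the malic enzyme Me3 by 0.57 (adjusted p = 0.00171). Acly, which splits exported citrate into cytosolic acetyl-CoA, rose by 0.37 (adjusted p = 0.0011).
Of 6 genes that make or attach lipoate, the cofactor of Dlat and Dlst, 3 fell and 0 rose. Lipt2 fell by 1.36 (adjusted p = 2.02e-07), Mecr by 0.73 (adjusted p = 2.99e-05) and Mcat by 0.45 (adjusted p = 0.00753).
Of 14 genes of fatty acid use that respond to PPAR factors, 9 fell and 0 rose, among them Acadm by 1.28 (adjusted p = 5.39e-07), Cpt1b by 0.97 (adjusted p = 2.88e-06), Hadha by 1.29 (adjusted p = 3.13e-05) and Plin5 by 1.67 (adjusted p = 3.25e-05). In each single knockout 0 genes of any of these 6 lists, the regulators included, were called by limma, and an unadjusted p under 0.05 was reached by 0 to 2 genes a list in AKT1 KO and by 0 to 1 a list in AKT2 KO hearts.

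Markers of cell types moved in the same hearts. Of 12 cardiomyocyte genes, 10 were called lower and 2, Myh7 and Nppa, higher in DKO hearts, with a median of -0.46. Their summed linear level, in multiples of the array's 75th percentile, ran from 3671 to 4552 in DKO and from 3648 to 4188 in control hearts. Over the 10 that were lower, without Myh7 and Nppa, the sum ran from 2458 to 2910 in DKO and from 3429 to 3952 in control hearts. Those 10 were picked by their fall on these same arrays. Their lower sum was therefore fixed in advance and carries no test. All 8 fibroblast genes were called higher, with a median of 0.93 and a summed level of 298 to 393 in DKO, against 190 to 201 in control hearts. Of 6 macrophage genes 4 were higher and 0 lower, with a summed level of 26.8 to 37.2 in DKO and 22.4 to 25.3 in control hearts. Of 6 endothelial genes 1 was higher and 1 lower, and of 6 smooth muscle and pericyte genes 2 were higher and 1 lower. Of 3 adipocyte genes past the filter, 1 was higher and 2 were lower. The defining cardiomyocyte genes were present on all arrays, as the tissue label says.
By array, the members' median lay -0.57, -0.68, -0.77 and -0.58 from the control mean in the 4 DKO hearts, beside -0.48, -0.54, -0.63 and -0.35 for the cardiomyocyte markers and 0.83 to 1.19 for the fibroblast markers. The DKO heart with the lowest median of members, replicate 3, was thus the one with the lowest cardiomyocyte and the highest fibroblast median. Its endothelial (-0.36) and smooth muscle and pericyte (-0.21) medians were the lowest of the DKO hearts as well. The order did not hold at the other end. Replicate 1 had the highest members' median, while replicate 4 had the highest cardiomyocyte and the lowest fibroblast median. In AKT1 KO replicate 1 the members' median was -0.32 and the cardiomyocyte median -0.24. The other marker medians of that array were below the control mean too. They were -0.32 for smooth muscle and pericyte, -0.25 for endothelial, -0.24 for macrophage, -0.10 for fibroblast and -0.03 for adipocyte markers. The part that cell composition has in the members' fall was not tested.

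**Figure D5:**
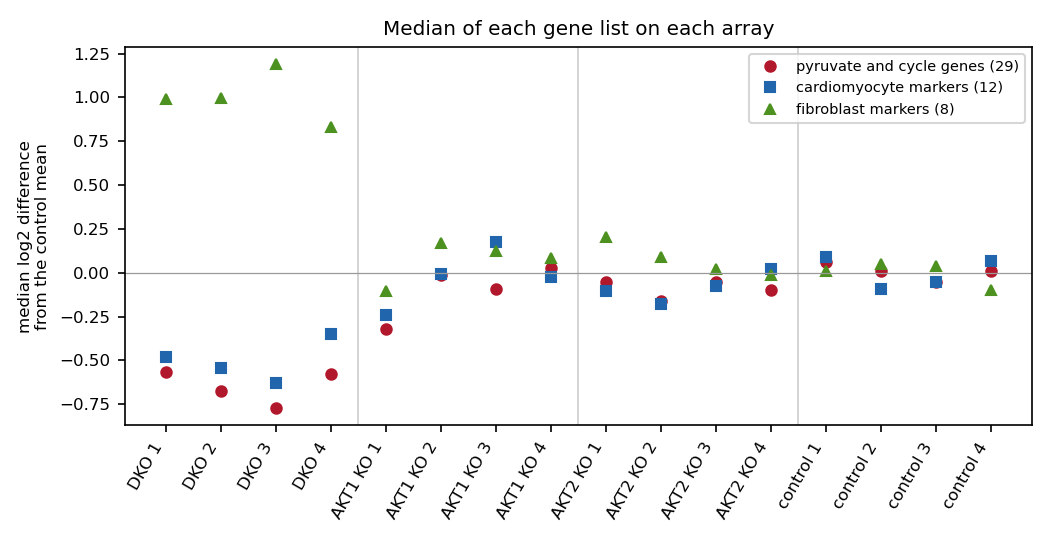
Median log2 difference from the control mean (vertical axis) on each of the 16 arrays (horizontal axis, DKO to the left, control to the right), for the 29 members, 12 cardiomyocyte markers and 8 fibroblast markers. In the 4 DKO hearts members lie between -0.77 and -0.57 and fibroblast markers between 0.83 and 1.19, while AKT1 KO replicate 1 is the only other array with a members' median below -0.2.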

How the data were processed

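RNA of 16 mouse hearts was hybridised to one-colour Agilent arrays, 4 hearts per group, and scanned intensities were read with Agilent Feature Extraction 12.0.3.1, per the file headers. The deposited scanner tables hold the intensity of each spot (the processed signal, already background-subtracted, and the median spot and background signals) and flags for spots well above background, saturated or outlying. The authors also deposited a value table on a log2 scale. It matched quantile-normalized log2 signals centred on each probe (correlations of 0.9998 or more, column medians from -0.024 to 0.013), is the log2 level relative to that centre, and served as an alternative.

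From the intensities, control spots (leaving 59305) and 118 probes with outlier flags were dropped, spots of one probe were averaged, and log2 signals were set against each array's 75th percentile. The percentile over all spots that are not controls ran from 492 to 809. A probe was kept if well above background on all 4 arrays of a group, and the brightest kept probe stood for its gene. No member's probe was saturated. Gene names came from RefSeq accessions (32994 of 56605 probes). Group means were fitted with limma 3.58.1 in R 4.3.3 over all 16 arrays and 13725 genes (12 residual and 2.54 prior degrees of freedom), with 6 comparisons, Benjamini-Hochberg adjusted within each, and a threshold of 0.05. Probe-level p-values were adjusted over 26396 kept probes. The number of arrays limits the precision.

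The members and lists were chosen with earlier results of these data known. Values by array are given for up to 14 members called against control by smallest adjusted p, for the top member of each role and for members whose probes differ, and at most 4 genes are named per other list, again by adjusted p. Means of the ERR genes and Gabpa are given besides, because motifs of these factors were searched. Alternatives changed the background correction, normalization, filter, probe rule, weights, prior, samples fitted, slide and replicate blocks, and left out arrays. Fits within each slide and without 2 arrays were added after seeing the data.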

Additional observations from a re-analysis of the deposited data

Results flagged for a closer look

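Within groups of 4 arrays, the highest or lowest array of a member was set apart by its gap to the next, relative to the group's range. Of 116 groups of values, 11 passed Dixon's 95% critical value of 0.829, where chance flags about 1 in 20 groups. Of the 11, 6 were low values of AKT1 KO replicate 1: 6.74 for Pdhb, 3.88 for Dlat, 4.56 for Pdk2, 3.97 for Pdp2, 7.52 for Ogdh and 6.46 for Dlst. Control replicate 3 was low for Dlat at 4.05 and for Pdk2 at 4.99, and it was the lowest control array for 20 of 29 members. DKO replicate 3 was low for Idh3b at 5.94. AKT2 KO replicate 2 was low for Pdp1 at 1.62, and AKT2 KO replicate 3 was high for Suclg2 at 2.56. The 29 members are measured on the same arrays, so these flags are not independent.

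The effect of deleting both genes departed from the sum of the single deletions, by the additivity term of the limma fit, for 15 members, all to the lower side. The log2 departures were -0.88 for Mpc2, -0.54 for Pdhb, -0.85 for Pdhx, -0.83 for Dlat, -0.77 for Dld and -0.75 for Pdpr. In the cycle they were -0.60 for Cs, -0.49 for Idh3a, -0.64 for Idh3b, -0.54 for Idh3g, -0.52 for Dlst, -0.48 for Suclg2, -1.14 for Sucla2 and -0.42 for Fh1. For Got2 of the shuttle the departure was -0.57.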

How the results depend on the processing

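Settings were changed 1 at a time. The 24 members called lower in DKO against control hearts became 22 to 25 in all settings but slide 2 alone, where they were 15. Within slide 2 alone, with 2 arrays per group, the count was 10 against AKT1 KO (23 with all arrays) and 12 against AKT2 KO (24). For the departure from additivity it was 0 (15). Over all genes these counts were 2715 (6450), 1903 (5780) and 188 (3566). For that departure array weights gave 22 members, and leaving out DKO replicate 3 and AKT1 KO replicate 1 gave 21. Of all 13725 genes, 6155 and 5327 were called for it in these settings, against 3566 in the main fit. In AKT1 KO hearts 1 member, Suclg1, was called with array weights, and 1 without those 2 arrays, against 0 otherwise. Of all genes, 822 were called there with array weights and 308 without those 2 arrays, against 109 in the main fit. Fitting each pair of groups on its own arrays gave 22 in DKO against control, 16 against AKT1 KO and 20 against AKT2 KO. Those fits called 5284, 4195 and 4310 of all genes. Leaving out each array in turn gave 23 to 25 in DKO against control, 21 to 25 against AKT1 KO and 21 to 25 against AKT2 KO. It gave 13 to 19 for the departure, and 0 to 0 in both single knockouts. These counts take in calls to either side. Without DKO replicate 4, 24 members were lower and 1 higher in DKO against control, and likewise against AKT1 KO. Without AKT1 KO replicate 2, 21 were lower and 1 higher against AKT1 KO. With no filter, 23 of 30 members were lower and 1 higher in DKO against control. Reversed signs were few among results called in the main fit or in the changed setting. Sign changes without a call, as for Got1 in DKO against control with normexp, were not counted. With the mean of probes, Pdk1 was -0.032 in DKO against AKT2 KO, and Pdp2 was -0.64 against AKT1 KO and -0.67 against AKT2 KO. With array weights, Pdk4 was -1.18 in DKO against AKT1 KO. Replicate numbers were not taken to pair the samples, since not every same-numbered pair of arrays deviated together: the correlations ran from -0.35 to 0.39 (median 0.14), with 15 of 24 over 0.1. That 9 of 16 arrays correlated best with their own number is a hint from the data, not the design. With the replicate block, counts were 24 in DKO against control, 22 against AKT1 KO, 23 against AKT2 KO, 15 for the departure and 0 in each single knockout. No scaling moved the median of all genes by more than 0.05 log2, and causes of these changes were not tested.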
